A study of Homo sapiens with 12 samples.

Results

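Tight junction genes were followed in a pair of human prostate cell lines in which the transcription factor ERG had been raised or targeted. The set holds every probe annotated to CLDN1, CLDN3, CLDN4, CLDN7, OCLN, TJP1, F11R, LSR and RAB25, selected by gene symbol. Of the 9 listed genes, 8 had a named probe in both value tables, out of 17262 genes in the series. They were read by 12 of 24525 probes on the VCaP arrays and by 9 of 20589 probes on the RWPE1 arrays. F11R had no named probe and was not analysed here.

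VCaP cells come from a prostate cancer whose ERG gene is fused to TMPRSS2. They received a lentiviral ERG shRNA or a scramble shRNA, followed in both groups by puromycin selection, with no time given in the labels. RWPE1 cells are prostate epithelial cells, immortalised but not from a cancer, and were transfected with GFP-ERG, a fusion of ERG to green fluorescent protein, or with GFP, and collected after 72 h or 48 h. Each of the 6 groups had 2 Illumina bead arrays hybridised with biotin-labelled RNA. The labels do not name the promoter that drives GFP-ERG, the share of cells transfected, or whether the arrays of a group came from separate cultures. The p-values therefore measure the spread between arrays, which may be technical.

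Tight junctions seal the space between neighbouring epithelial cells near their apical surface. Claudins are 4-span membrane proteins whose strands form the seal and set which ions pass, while occludin lies in the same strands and LSR (angulin-1) marks the corners where 3 cells meet. TJP1, also called ZO-1, is the cytoplasmic scaffold that ties the strands to actin, and RAB25 is an epithelial GTPase of the Rab11 family that returns membrane proteins from recycling endosomes to the cell surface.

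Promoter sequence is shown for CLDN7 and LSR, which were called lower in VCaP, for RAB25, which had the lowest difference there, and for CLDN1, which was called lower at both times in RWPE1. The windows are those of RefSeq on build GRCh38.p14, with 250 bases before and 50 after a gene start, read 5′ to 3′ on the gene's strand. Capitals mark the E-box CAGGTG, a sequence that repressors such as SNAI1 and ZEB1 can bind, and 2 forms of the ETS core, which proteins of the ERG family can bind. These are CGGAAG, read as CTTCCG on the other strand, and then AGGAAG, which reads as CTTCCT there, while the E-box reads as CACCTG. Both strands were searched, and 0 bases lay in more than 1 match. CLDN7 is shown by the downstream one of its 2 windows (chr17:7262429-7262728, minus strand), RAB25 by chr1:156060910-156061209 (plus strand), LSR by chr19:35248752-35249051 (plus strand) and CLDN1 by chr3:190322397-190322696 (minus strand).
CLDN7: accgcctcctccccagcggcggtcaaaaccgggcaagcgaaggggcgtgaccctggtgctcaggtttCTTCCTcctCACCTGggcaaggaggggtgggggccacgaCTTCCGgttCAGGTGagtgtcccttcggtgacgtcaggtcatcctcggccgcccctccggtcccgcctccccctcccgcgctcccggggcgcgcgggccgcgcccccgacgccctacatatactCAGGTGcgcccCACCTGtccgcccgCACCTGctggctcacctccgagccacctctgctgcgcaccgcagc
RAB25: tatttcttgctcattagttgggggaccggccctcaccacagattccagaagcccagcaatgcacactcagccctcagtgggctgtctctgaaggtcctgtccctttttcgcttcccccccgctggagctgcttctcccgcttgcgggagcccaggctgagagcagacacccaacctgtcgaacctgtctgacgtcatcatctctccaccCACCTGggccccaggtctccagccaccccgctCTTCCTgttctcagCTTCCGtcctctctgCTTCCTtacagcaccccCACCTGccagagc
LSR: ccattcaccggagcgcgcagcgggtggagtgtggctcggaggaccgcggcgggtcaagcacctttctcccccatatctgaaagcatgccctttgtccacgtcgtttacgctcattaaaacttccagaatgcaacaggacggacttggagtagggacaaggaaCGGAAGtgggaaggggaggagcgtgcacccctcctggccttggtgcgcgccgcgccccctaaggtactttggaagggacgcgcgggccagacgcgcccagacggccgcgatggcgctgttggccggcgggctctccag
CLDN1: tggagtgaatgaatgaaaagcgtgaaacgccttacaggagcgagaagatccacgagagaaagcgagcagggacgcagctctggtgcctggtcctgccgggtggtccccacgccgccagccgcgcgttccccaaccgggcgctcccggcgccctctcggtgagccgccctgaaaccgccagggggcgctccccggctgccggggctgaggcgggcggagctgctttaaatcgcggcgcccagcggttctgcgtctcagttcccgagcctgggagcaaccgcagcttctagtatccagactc

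The CLDN7 window held 5 E-boxes and 2 ETS cores, and the other CLDN7 window (chr17:7263164-7263463) held 0 E-boxes and 1 ETS core. RAB25 had 2 E-boxes and 3 ETS cores, LSR had 0 E-boxes and 1 ETS core, and CLDN1 had 0 of either. The 8 genes together had 13 windows, of which 6 held an E-box, 10 held an ETS core, and 1 held 3 or more E-boxes. Among all 35116 RefSeq windows of 300 bases, 20.6% held the E-box, 19.5% held CGGAAG, 33.6% held AGGAAG, 46.9% held either ETS core and 0.635% held 3 or more E-boxes. A match only describes the letters, and binding was not measured here.

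Levels below are normalized log2 signals, in which a difference of 1 is a doubling on the scale of the deposited values. Fold changes come from limma fitted to every probe of a table, and a probe was called where its Benjamini-Hochberg adjusted p over all probes was under 0.05. The arrays of a pair were close in RWPE1, where 0 or 1 probes differed by more than 2-fold. In VCaP, 138 probes differed that much within the pair labelled ERG shRNA and 4 within the scramble pair, and the largest difference within a pair for a tight junction probe was 0.42 and 0.24.

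ERG itself was read as a check of the labels. In VCaP the brightest ERG probe (NM_182918) read 8.71 and 8.77 on the arrays labelled ERG shRNA, against 8.35 and 8.33 on the scramble arrays. It was higher by 0.40 on the log2 scale where the label names a knockdown (limma adjusted p = 0.0396). The other 2 ERG probes differed by -0.01 and -0.04, at 7.62 and 7.52 with ERG shRNA against 7.63 and 7.56 with scramble. These lay below the table's median of 7.75, near the bottom of the scale, where a fall would hardly show. As no ERG probe showed the labelled knockdown, every VCaP direction below refers to the label alone. In RWPE1 a probe for NM_182918 was higher in GFP-ERG cells, by 0.63 at 72 h (limma adjusted p = 1.06e-06) and by 0.95 at 48 h (limma adjusted p = 2.05e-09). It averaged 6.94 and 7.31 in GFP-ERG cells at 72 h and 48 h, against 6.31 and 6.36 in GFP cells. The probe for NM_004449 differed by -0.03 and -0.01. Its group means lay between 6.91 and 6.94, below the table's median of 7.24.

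Epithelial markers were present in both lines. The mean log2 signal of 8 such genes was 8.67 to 8.75 on the arrays labelled ERG shRNA and 8.76 to 8.84 on the scramble arrays, with 6 of 8 above the array median and the basal keratins KRT5 and KRT14 near the bottom of the scale. In RWPE1 it was 10.37 to 10.60 in GFP-ERG cells and 10.39 to 10.58 in GFP cells, with 7 of 8 above the median, and the CDH1 probe was below it. Of these 8 markers, 0 were called in any comparison of ERG shRNA with scramble or of GFP-ERG with GFP. Calls were few among all genes too, at 1.66% higher and 1.73% lower in VCaP. In RWPE1 these shares were 3.11% and 2.99% at 72 h, 4.7% and 3.79% at 48 h, and 6.65% and 5.51% as the mean of both times. Since the RNA came from whole cultures, fewer cells that express a gene and less RNA per cell cannot be told apart.

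In VCaP, CLDN7 fell 2.12-fold on the arrays labelled ERG shRNA and 1 of the 3 LSR probes fell 1.34-fold. RAB25 had the lowest difference of the 12 probes, at -1.33 on the log2 scale, and just missed the threshold. CLDN1, CLDN3 and the brighter OCLN probe also had lower values on both arrays labelled ERG shRNA, without passing the test, whereas both TJP1 probes had higher values, again without passing. Of the 12 probes, 2 were called, 0 higher and 2 lower, where 2.93% of all VCaP probes were called.

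**Figure D1:**
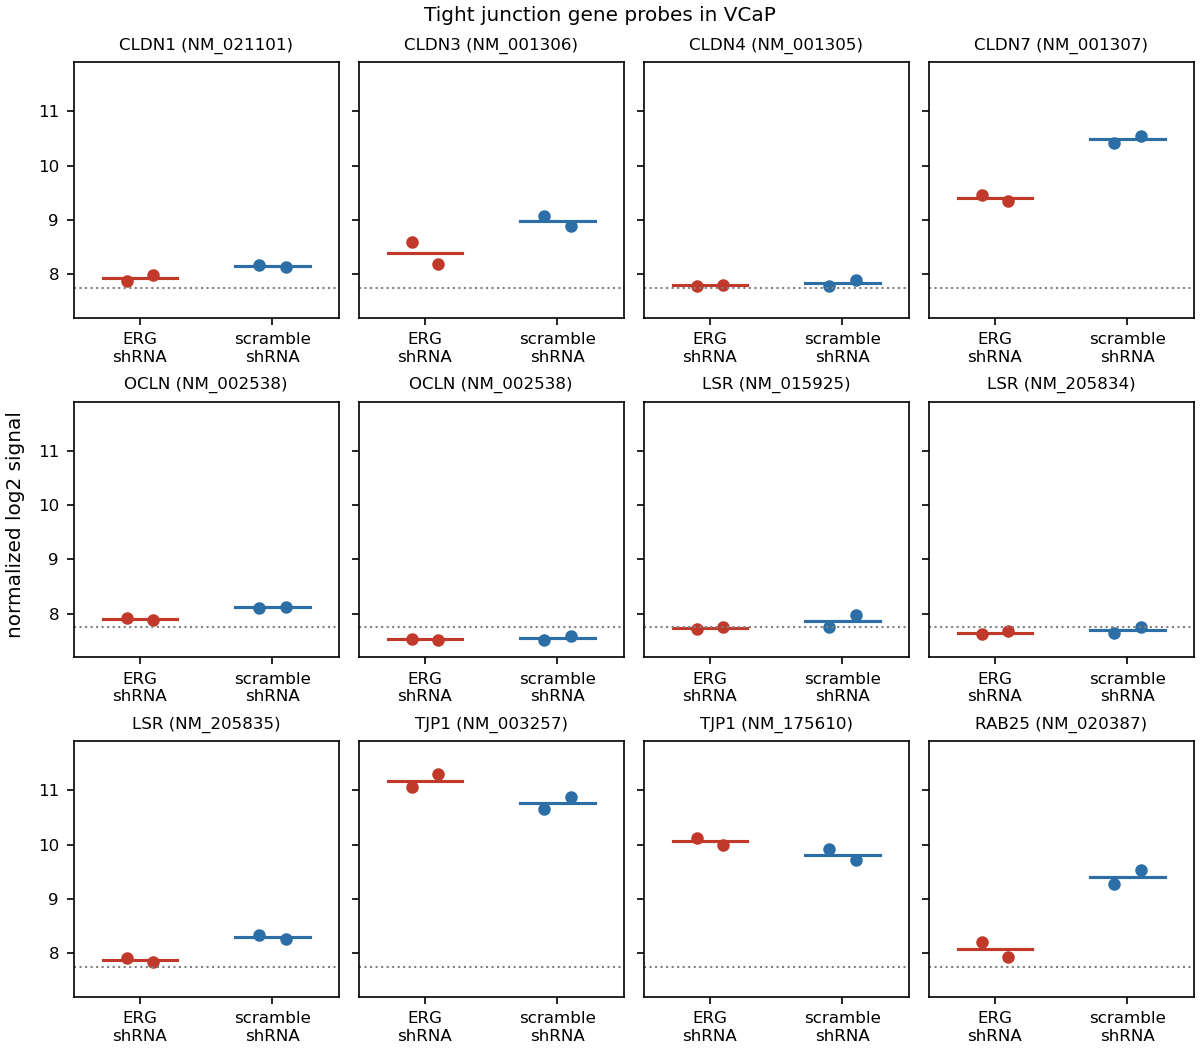
Normalized log2 signal (vertical axis) of the 12 tight junction probes on the 4 VCaP arrays, with ERG shRNA in red left of scramble shRNA in blue; points are arrays, horizontal bars are group means of 2 arrays, and the dotted line is the table's median of 7.75. CLDN7 and RAB25 lie about 1 log2 unit lower on the arrays labelled ERG shRNA, TJP1 lies somewhat higher there, and several LSR, OCLN and CLDN4 probes stay near the median in both groups.

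CLDN7, a claudin of the basolateral as well as the junctional membrane, read 9.46 and 9.34 on the arrays labelled ERG shRNA, against 10.42 and 10.54 on the scramble arrays. The groups lay far apart compared with the spread of either pair, and both were well above the table's median of 7.75. CLDN7 averaged 9.40 ± 0.09 with ERG shRNA and 10.48 ± 0.09 with scramble (SD, n = 2 each). The difference was -1.08 (SE 0.07, 95% interval -1.30 to -0.87) with a limma adjusted p of 0.0335. Of its 2 promoter windows, the one printed above holds 5 E-boxes and the other holds 0.

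CLDN3, a sealing claudin, read 8.59 and 8.18 on the arrays labelled ERG shRNA, against 9.08 and 8.89 on the scramble arrays. The groups did not overlap, but the arrays labelled ERG shRNA differed from each other by more than the gap between the groups. The difference was -0.60 (SE 0.18, 95% interval -1.13 to -0.07) and did not pass (limma adjusted p = 0.213). CLDN1, which is required for the barrier of the skin, read 7.87 and 7.98 with ERG shRNA, against 8.17 and 8.14 with scramble, a difference of -0.23 (95% interval -0.38 to -0.07, limma adjusted p = 0.144). CLDN4, whose gene lies beside CLDN3 on chromosome 7, read 7.79 and 7.80 with ERG shRNA, against 7.78 and 7.90 with scramble, so that its groups overlapped close to the median of the table. Its difference was -0.05 (95% interval -0.21 to 0.11, limma adjusted p = 0.735), an interval that leaves room for a small change in either direction.

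Occludin was read by 2 probes that carry the same transcript accession. The brighter one read 7.92 and 7.88 on the arrays labelled ERG shRNA, against 8.11 and 8.13 on the scramble arrays, without overlap. Its difference was -0.22 (SE 0.03, 95% interval -0.31 to -0.13), with a limma adjusted p of 0.0689. The other one lay near the bottom of the scale, at 7.54 and 7.52 with ERG shRNA against 7.52 and 7.59 with scramble, where a change in RNA would hardly move the signal.

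LSR was read by 3 probes, of which 1 was called. The probe for NM_205835 read 7.91 and 7.84 on the arrays labelled ERG shRNA, against 8.33 and 8.27 on the scramble arrays, and fell by 0.43 (SE 0.04, 95% interval -0.56 to -0.29, limma adjusted p = 0.0492). The probe for NM_015925 read 7.72 and 7.75 with ERG shRNA, against 7.75 and 7.98 with scramble, and the probe for NM_205834 read 7.63 and 7.68, against 7.64 and 7.75. These 2 lay close to or below the table's median, and their differences of -0.13 and -0.04 had limma adjusted p-values of 0.583 and 0.789. Averaged over its probes, LSR differed by -0.20 and did not pass (limma adjusted p = 0.131).

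RAB25 read 8.21 and 7.93 on the arrays labelled ERG shRNA, against 9.28 and 9.53 on the scramble arrays. The arrays of each pair differed visibly, and the groups lay further apart than either pair was spread. RAB25 averaged 8.07 ± 0.20 with ERG shRNA and 9.40 ± 0.17 with scramble (SD, n = 2 each), 2.52-fold lower, a difference of -1.33 (SE 0.14, 95% interval -1.77 to -0.90). The limma adjusted p over all probes was 0.0518, and it was 0.0491 where each gene was represented by its brightest probe. It was 0.0269 with a filter on dim probes and 0.000171 with a trended, robust variance. RAB25 stayed uncalled after background subtraction and with array number as a block, so the call turns on the settings of the fit.

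TJP1 was the member with higher values. Its probe for NM_003257 read 11.06 and 11.29 on the arrays labelled ERG shRNA, against 10.65 and 10.88 on the scramble arrays, a difference of 0.41 (SE 0.13, 95% interval 0.02 to 0.80, limma adjusted p = 0.239). The probe for NM_175610 read 10.12 and 10.00 with ERG shRNA, against 9.92 and 9.71 with scramble, a difference of 0.24 (95% interval -0.05 to 0.54, limma adjusted p = 0.321). Neither probe's groups overlapped, and both probes pointed the same way. Averaged over both probes, TJP1 was higher by 0.33 with a limma adjusted p of 0.0483, adjusted over genes.

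Among the 12 probes, 10 had a negative difference and the median was -0.18, beside 0.00 over all VCaP probes. For 9 of the 12 the 2 groups had no overlap, where 51.3% of all probes had no overlap, and 7 of the 9 were lower with ERG shRNA, where 23.5% of all probes were. At an unadjusted p under 0.05 there were 7 of 12, where 19.7% of all probes were. The 12 probes stand for 8 genes, which were chosen with earlier results of these data known, so these shares are no test of the set. With 1 VCaP array left out, a group has 1 array, and the spread is read from the other pair alone. A count of calls then cannot show whether a call rests on 1 array. CLDN7 differed by -1.14 without scramble array 1 and by -1.02 without scramble array 2. The LSR probe for NM_205835 differed by -0.40 and -0.45 in these fits.

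Other genes of the junction were counted beside these. Of 45 measured genes for further claudins, tricellulin-type proteins, JAM family members, scaffolds and polarity proteins, 1 was called higher and 0 lower, where 1.66% of all genes were called higher and 1.73% lower. The one called was CGN (cingulin, a cytoplasmic linker that binds ZO-1), higher by 0.63 or 1.55-fold on the arrays labelled ERG shRNA (SE 0.03, limma adjusted p = 0.0311). The median difference of the 45 was 0.01, against 0.00 for all genes.

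A list named for Rab11 recycling was counted in the same way; it holds Rab11 relatives and their effectors, and also GTPases of early and late endosomes, myosin V motors and the ESCRT-III genes CHMP1A and CHMP4B. Of 19 measured, 5 were called higher and 0 lower, where 1.66% of all genes were called higher, and the list's median was 0.34 against 0.00 for all genes. The list was bright, with 18 or 19 of the 19 above the array median. With dim probes filtered out, 532 of 12843 VCaP probes were called higher. With array number as a block, 0 of all 24525 probes were called. RAB5A, the GTPase of early endosomes, was higher by 0.77 on the arrays labelled ERG shRNA (limma adjusted p = 0.0405), and RAB7A, the GTPase of late endosomes, by 0.65 (limma adjusted p = 0.0315). RAB10 was higher by 0.62, the Rab11 effector RAB11FIP4 by 0.59 and the motor MYO5B by 0.49, with limma adjusted p-values of 0.0406, 0.0384 and 0.0492. RAB11A, a relative of RAB25 in the list, had a difference of 0.65 with a wide error (SE 0.22) and did not pass (limma adjusted p = 0.261). RAB11B, another relative, was not called either.

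Of 18 measured transcription factors known to act on epithelial junction genes, 0 were called by limma in VCaP. Among all genes, 1.66% were called higher and 1.73% lower. The E-box binders SNAI1 and ZEB1 differed by 0.05 and -0.03, and the largest difference was 0.84 for EHF, an epithelial ETS factor (SE 0.18, limma adjusted p = 0.136). Markers of other cell types gave 0 called of 8 fibroblast and 0 of 9 endothelial genes, beside the same shares of all genes. Of 6 leukocyte markers, 1 was called higher and 0 lower, with a list median of -0.01, where 1.66% of all genes were called higher. The one called was LCP1, higher by 1.15 on the arrays labelled ERG shRNA (limma adjusted p = 0.0389), at 13.27 against 12.12 with scramble. The leukocyte marker PTPRC averaged 7.65 with ERG shRNA and 7.67 with scramble, below the table's median of 7.75. The part of LCP1 in the differences above was not tested.

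In RWPE1, CLDN1 was lower in GFP-ERG cells at both times, by 1.29-fold at 72 h and by 1.47-fold at 48 h. CLDN7 was lower in GFP-ERG cells at 48 h by 1.19-fold, and at 72 h it had a slightly higher value that did not pass. The other probes of the set, for CLDN3, CLDN4, OCLN, LSR, TJP1 and RAB25, were not called in either comparison. Of the 9 probes, limma called 1 at 72 h (0 higher, 1 lower), where 5.67% of all RWPE1 probes were called, and 2 at 48 h (0 higher, 2 lower), where 7.77% were.

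**Figure D2:**
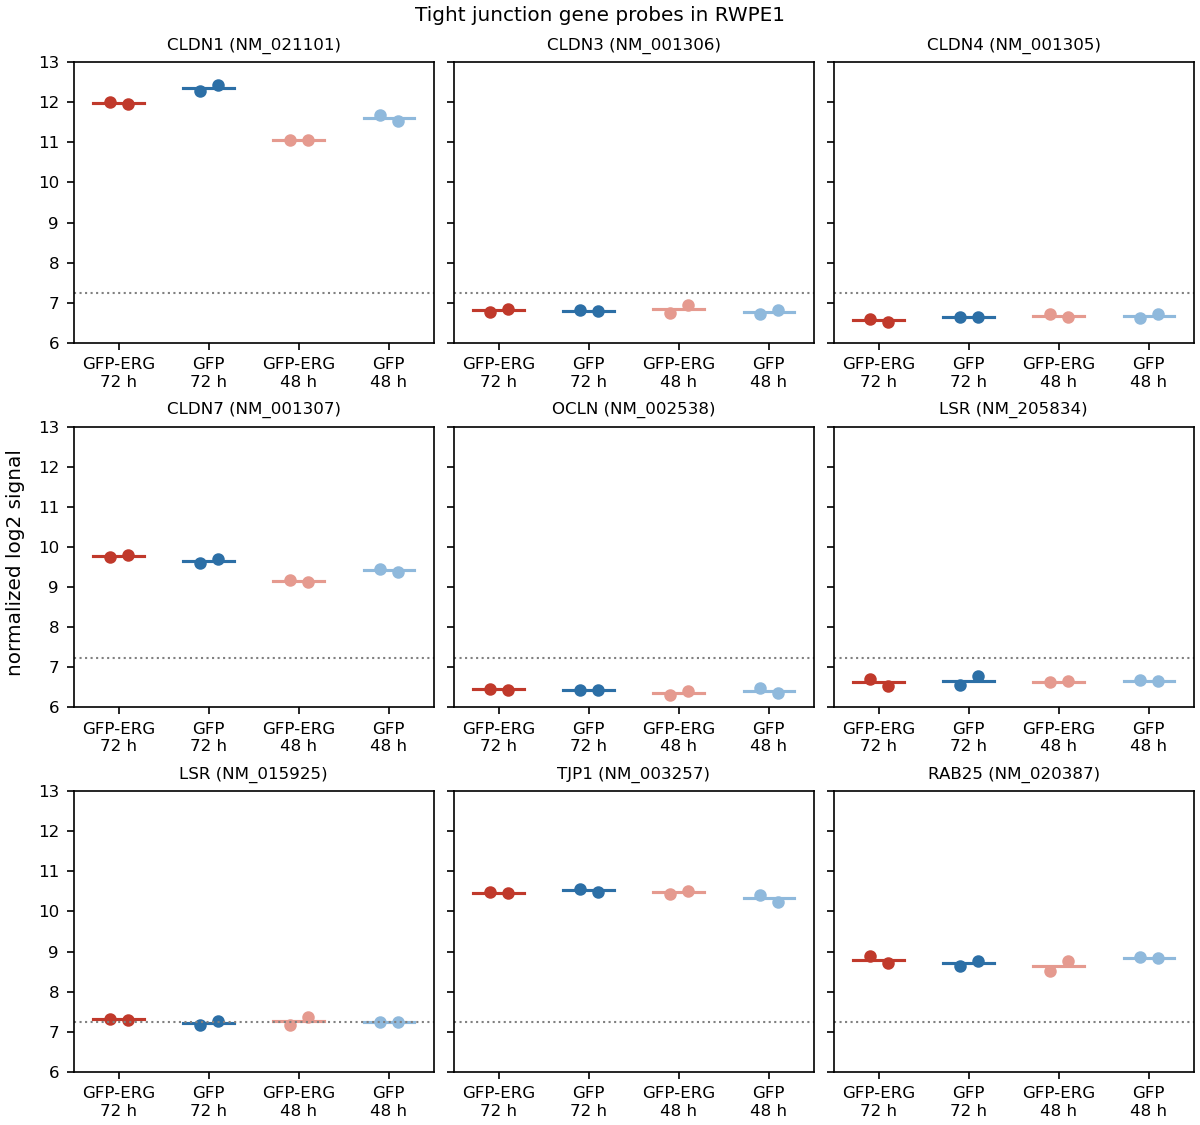
Normalized log2 signal (vertical axis) of the 9 tight junction probes on the 8 RWPE1 arrays, by transfection and time; points are arrays, horizontal bars are group means of 2 arrays, and the dotted line is the table's median of 7.24. CLDN1 is lower in GFP-ERG cells than in GFP cells at each time and higher at 72 h than at 48 h, while CLDN3, CLDN4, OCLN and 1 LSR probe lie below the median in every group.

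CLDN1 read 12.00 and 11.96 in GFP-ERG cells at 72 h, against 12.28 and 12.42 in GFP cells. At 48 h it read 11.05 and 11.05 in GFP-ERG cells, against 11.68 and 11.53 in GFP cells. The 4 pairs of arrays did not overlap, and from the lowest up they ran GFP-ERG 48 h, GFP 48 h, GFP-ERG 72 h and GFP 72 h. CLDN1 fell in GFP-ERG cells by 0.37 at 72 h (SE 0.07, 95% interval -0.51 to -0.22, limma adjusted p = 0.00152), a call that was lost without array 2 of GFP at 72 h (limma adjusted p = 0.0656). At 48 h it fell by 0.56 (SE 0.07, 95% interval -0.70 to -0.41, limma adjusted p = 8.61e-06). The change of the effect between the times was 0.19 (95% interval -0.02 to 0.39) and did not pass (limma adjusted p = 0.589).

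As the mean of both times, CLDN1 was lower in GFP-ERG cells by 0.46 (SE 0.05, 95% interval -0.56 to -0.36, limma adjusted p = 5.32e-07), and the 5th and 95th percentiles of all genes were -0.16 and 0.18 in that comparison. It was the 1 probe of 9 called there, where 11.1% of all probes were called. CLDN1 averaged 11.98 in GFP-ERG cells and 12.35 in GFP cells at 72 h, and 11.05 in GFP-ERG cells and 11.60 in GFP cells at 48 h. The 4 arrays of GFP-ERG overlapped the 4 of GFP when the times were put together, and a fit that left out time did not call it (limma adjusted p = 0.659). For 0 of the 9 probes were the 4 arrays of each transfection free of overlap, where 7.68% of all probes were.

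CLDN7 read 9.75 and 9.81 in GFP-ERG cells at 72 h, against 9.60 and 9.70 in GFP cells. At 48 h it read 9.18 and 9.13 in GFP-ERG cells, against 9.46 and 9.37 in GFP cells. The groups did not overlap at either time, with GFP-ERG above GFP at 72 h and below it at 48 h. The difference was 0.13 at 72 h (SE 0.07, 95% interval -0.01 to 0.27, limma adjusted p = 0.331). At 48 h CLDN7 fell by 0.26 (SE 0.07, 95% interval -0.39 to -0.12, limma adjusted p = 0.0158). This call was lost without array 1 of GFP at 48 h and without array 2 of GFP-ERG at 48 h (limma adjusted p = 0.192 and 0.0963). The effect at 72 h minus that at 48 h was 0.38 (SE 0.09, 95% interval 0.19 to 0.58), which did not pass over all probes (limma adjusted p = 0.0824).

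RAB25, lowest of the set in VCaP, read 8.88 and 8.72 in GFP-ERG cells at 72 h, against 8.64 and 8.77 in GFP cells. At 48 h it read 8.52 and 8.77 in GFP-ERG cells, against 8.87 and 8.83 in GFP cells. The groups overlapped at 72 h and lay side by side at 48 h, where array 2 of GFP-ERG nearly reached the GFP pair. The differences were 0.10 at 72 h (95% interval -0.07 to 0.26, limma adjusted p = 0.607) and -0.20 at 48 h (95% interval -0.37 to -0.04, limma adjusted p = 0.149). Across the settings of the fit, the difference at 48 h ran from -0.33, without array 2 of GFP-ERG at 48 h, to -0.08. Its size thus turned on the setting.

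TJP1 read 10.49 and 10.45 in GFP-ERG cells at 72 h, against 10.57 and 10.49 in GFP cells. At 48 h it read 10.44 and 10.52 in GFP-ERG cells, against 10.41 and 10.24 in GFP cells. It was bright throughout, and its differences of -0.06 at 72 h (95% interval -0.20 to 0.08) and 0.15 at 48 h (95% interval 0.01 to 0.30) had limma adjusted p-values of 0.736 and 0.224. The change of the effect between the times was -0.22 for TJP1 (limma adjusted p = 0.506) and 0.30 for RAB25 (limma adjusted p = 0.382).

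CLDN3, CLDN4, OCLN and the LSR probe for NM_205834 lay in the lower part of the RWPE1 scale, where the deposited values leave little room to see a fall. On the 8 arrays their signals ranked between percentiles 27.8 and 40.4, 13.9 and 28.2, 2.13 and 10.1, and 14.2 and 32.0 of all probes. CLDN3 read 6.77 and 6.85 in GFP-ERG cells at 72 h, against 6.82 and 6.79 in GFP cells, and 6.74 and 6.93 in GFP-ERG cells at 48 h, against 6.71 and 6.83 in GFP cells. OCLN read 6.45 and 6.44 in GFP-ERG cells at 72 h, against 6.42 and 6.42 in GFP cells, and 6.31 and 6.41 at 48 h, against 6.48 and 6.35. Across CLDN3, CLDN4, OCLN and both LSR probes the differences ran from -0.08 to 0.09 at 72 h and from -0.05 to 0.06 at 48 h, and none of the 5 was called. CLDN3 was well above the median in VCaP, at 8.39 with ERG shRNA and 8.98 with scramble. The tables were normalized separately and use other probes, so no level was compared between the lines.

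**Figure D3:**
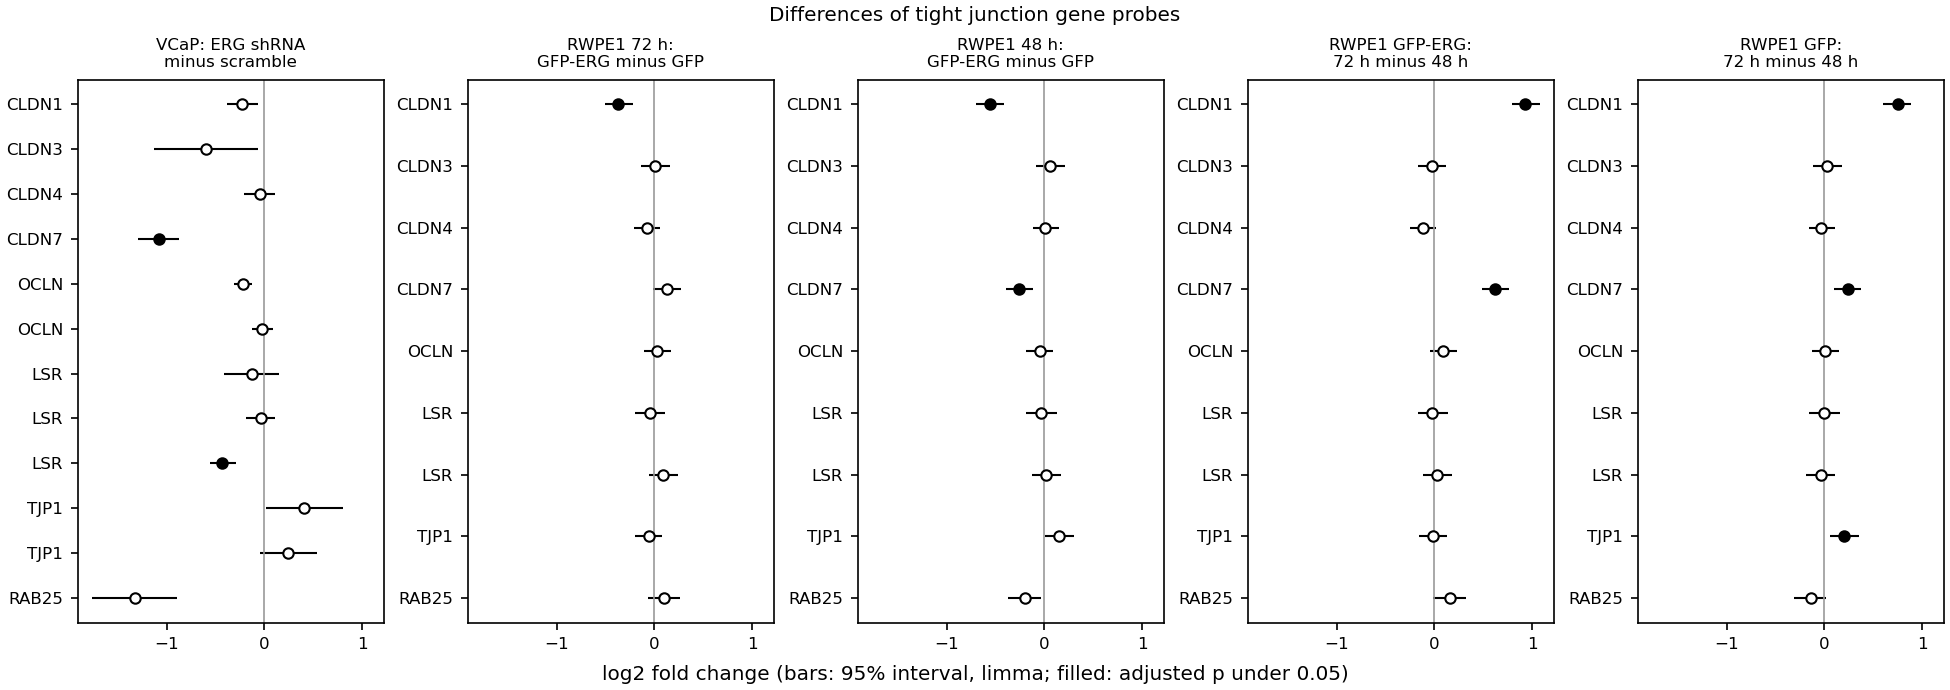
Log2 fold changes (horizontal axis) of each tight junction probe in 5 comparisons, with 95% intervals from limma; filled points passed an adjusted p of 0.05 over all probes of the table. In VCaP most points lie left of 0 with CLDN7 and 1 LSR probe filled, whereas in RWPE1 CLDN1 lies left of 0 in both comparisons of GFP-ERG with GFP and right of 0 in both comparisons of 72 h with 48 h.

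CLDN1 and CLDN7 were also higher at 72 h than at 48 h in both transfections. At 72 h against 48 h, limma called 2 of the 9 probes higher and 0 lower in GFP-ERG cells, where 23.1% of all probes were called in either direction. In GFP cells it called 3 higher and 0 lower, where 21.0% were. CLDN1 was higher at 72 h by 0.93 in GFP-ERG cells (SE 0.07, limma adjusted p = 2.24e-09) and by 0.75 in GFP cells (SE 0.07, limma adjusted p = 7.37e-08). CLDN7 was higher at 72 h by 0.62 in GFP-ERG cells (limma adjusted p = 3.21e-07) and by 0.24 in GFP cells (limma adjusted p = 0.0111). TJP1 differed by -0.01 in GFP-ERG cells (limma adjusted p = 0.932) and was higher by 0.20 in GFP cells (limma adjusted p = 0.0392). In GFP cells the calls of CLDN7 and TJP1 were both lost without array 2 at 48 h (limma adjusted p = 0.13 and 0.396) or array 2 at 72 h (0.125 and 0.064), and that of TJP1 also without array 1 at 72 h (0.229). Markers of several cell types differed with time as well. Of 8 epithelial markers, 3 were called higher at 72 h in GFP-ERG cells and 2 in GFP cells, among them the basal keratin KRT5, by 0.58 and 0.49 (limma adjusted p = 3.77e-06 and 3.51e-05). Of 8 fibroblast markers, 2 were called higher and 1 lower in GFP-ERG cells, and 2 higher and 0 lower in GFP cells, with COL1A1 higher by 0.55 and 0.61. Of 6 leukocyte markers, 1 was called in each transfection, CD68, which fell by 1.13 in GFP-ERG cells and by 1.16 in GFP cells. CD68 was bright, at 11.24 at 72 h and 12.37 at 48 h in GFP-ERG cells, and 11.10 and 12.26 in GFP cells. The leukocyte marker PTPRC had group means of 6.89 to 6.98, below the table's median of 7.24. Of 9 endothelial markers, 2 were called lower in GFP-ERG cells and 3 in GFP cells. Among all genes, 12.8% were called higher and 12.5% lower in GFP-ERG cells, and 11.6% and 11% in GFP cells. The part of these markers in the claudin differences was not tested. These comparisons use the same arrays as those of GFP-ERG with GFP, and of the change of effect between the times 0 of 9 probes were called, where 0.403% of all were. At an unadjusted p under 0.05 there were 3 of 9, where 9.22% of all probes were.

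Of 46 other tight junction genes measured in RWPE1, 2 were called higher and 3 lower in GFP-ERG cells as the mean of both times, where 6.65% of all genes were called higher and 5.51% lower. MPDZ (MUPP1, a scaffold with many PDZ domains) was higher by 0.33 and CLDN5, the main claudin of vessel walls, by 0.32 (limma adjusted p = 3.11e-05 and 5.36e-05). CGNL1 (paracingulin) was lower by 0.25, the coxsackievirus receptor CXADR by 0.22 and SYMPK (symplekin) by 0.17, with limma adjusted p-values of 0.00106, 0.00662 and 0.0188. By time, the calls were 1 higher and 2 lower at 72 h, where 3.11% and 2.99% of all genes were, and 2 higher and 1 lower at 48 h, where 4.70% and 3.79% were. Between the times, CLDN5 was lower at 72 h by 1.03 in GFP-ERG cells and by 0.89 in GFP cells, the opposite direction to CLDN1 and CLDN7 (limma adjusted p = 3.18e-10 and 3.95e-09).

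**Figure D4:**
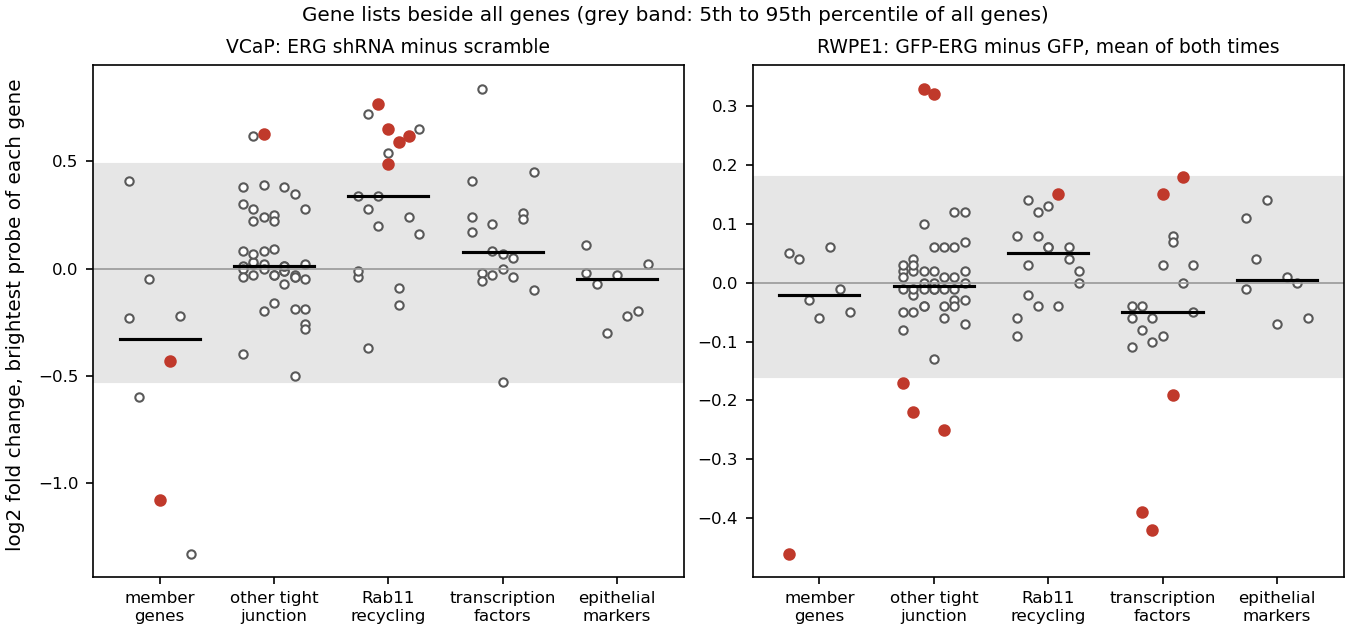
Log2 fold changes (vertical axis) of the brightest probe of each gene in 5 gene lists, for ERG shRNA against scramble in VCaP and for GFP-ERG against GFP as the mean of both times in RWPE1; filled red points passed an adjusted p of 0.05, black bars are list medians, and the grey band spans the 5th to 95th percentile of all genes. The Rab11 recycling genes have a median of 0.34 in VCaP, above the other lists shown, and CLDN1 and KLF5 are the lowest points in RWPE1.

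Among junction transcription factors in RWPE1, 2 of 19 (10.5%) were called higher and 3 (15.8%) lower as the mean of both times, where 6.65% of all genes were called higher and 5.51% lower. The Krüppel-like factors KLF5 and KLF4, which act in epithelial growth and differentiation, fell in GFP-ERG cells by 0.42 and 0.39, and ZEB2 by 0.19 (limma adjusted p = 0.00462, 1.22e-05 and 0.00977). SNAI1 was higher by 0.18 and ZEB1 by 0.15 (limma adjusted p = 0.0155 and 0.0414). At 72 h KLF4 alone was called among the 19, lower by 0.40, where 3.11% of all genes were called higher and 2.99% lower, and at 48 h 2 were called higher and 4 lower, where 4.70% and 3.79% of all genes were. Of 18 genes of the Rab11 recycling list, 1 (5.56%) was called higher and 0 lower as the mean of both times, close to the 6.65% of all genes called higher. It was RAB11FIP5, by 0.15 (limma adjusted p = 0.0404).

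Some endothelial markers were higher with GFP-ERG. The mean log2 signal of 9 such genes was 6.91 to 7.15 in GFP-ERG cells and 6.79 to 6.98 in GFP cells, and 3 of 9 (33.3%) were called higher and 0 lower as the mean of both times, where 6.65% of all genes were called higher. The list's median difference was 0.03. The 3 were TEK by 0.73, ICAM2 by 0.32 and CLDN5, which the junction list also holds. The defining markers PECAM1 and CDH5 stayed low, at 6.86 and 6.45 in GFP-ERG cells and 6.89 and 6.46 in GFP cells at 72 h. The leukocyte marker PTPRC averaged 6.93 in GFP-ERG cells and 6.98 in GFP cells at 72 h, below the table's median of 7.24. Of 6 leukocyte markers 1 was called higher and 0 lower (list median 0.07), CD14, by 1.03, and of 8 fibroblast markers 0 were called higher and 1 lower (list median -0.01), DCN, by 0.26 (limma adjusted p = 1.37e-11 and 0.000326). Their part in the lower CLDN1 was not tested.

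The genes whose levels were most like those of CLDN1 over the 8 RWPE1 arrays were HCCS, SERP2, GTSE1, NPL and LONP2, among 9415 probes of other genes with a mean at or above the median. Pearson's r was 0.996 for HCCS, 0.992 for SERP2 and 0.990 for each of the other 3. The 8 arrays span GFP-ERG and GFP at 72 h and 48 h, so genes that differ among these groups in a like order can have a high r. Of the 9415 probes, 480 (5.10%) had an r over 0.9. HCCS averaged 8.87 in GFP-ERG cells and 9.01 in GFP cells at 72 h, and 8.48 in GFP-ERG cells and 8.70 in GFP cells at 48 h, the same order of groups as CLDN1 over a narrower range.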

How the data were processed

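The deposited values of both tables were read as log2 signals from their range, 7.44 to 15.4 in VCaP and 5.95 to 15.1 in RWPE1. The authors' software, background correction and normalization are steps not given in the sources used here. Sorted values of an array lay within 0.00021 (VCaP) and 0.039 (RWPE1) of the mean sorted values, so they were used as deposited. Array medians of 7.75 and 7.23 to 7.24 lie near the bottom of each scale, which understates the fold changes of dim probes. Probes were named from the platform annotation with RefSeq symbols (GRCh38.p14): 21833 of 24525 and 18332 of 20589 had 1 symbol, the rest none.

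Every probe was fitted with limma 3.58.1 in R 4.3.3 (group means, eBayes), 2-sided, with Benjamini-Hochberg adjustment over all probes of a table and a threshold of 0.05. The 4 VCaP arrays made 1 fit and the 8 RWPE1 arrays another. Lists were counted on the brightest probe of each gene. The fit was also run on simulated signals with independent normal noise at the fitted variances. Such data hold no effect shared by the probes of an array, so the run does not cover one. Tables were handled with Python 3.11.15 and pandas 2.3.3. With 2 arrays in each group, precision is limited by their number.

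All probes of the listed genes were reported, with ERG, up to 6 called genes of a list by size of change, and the 5 probes most correlated in RWPE1 with the member most changed there as the mean of both times (CLDN1); RAB11A, EHF and the values of SNAI1 and ZEB1 in VCaP were added after their values were seen. Members and lists were chosen with earlier results of these data known. The lists hold some genes under both an older and a newer symbol. Alternatives were the variance model, array number as a block, a filter on dim probes, the handling of probes, background subtraction (5th percentile, offset 50), renewed quantile normalization, the arrays in the fit and leaving out each array.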

Additional observations from a re-analysis of the deposited data

How the results depend on the processing

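There were 923 fold changes of single tight junction probes, or of a gene averaged over its probes, under 20 settings. Of these, 893 stayed on their side of the threshold, 21 lost a call and 9 gained one. No called value changed sign, while 39 of the 893, uncalled in both fits, did. In VCaP, 2 of 12 probes were called as reported, 4 with a trended, robust variance, 1 after background subtraction, and between 0 and 4 when 1 array was left out (0 where either scramble array was dropped, 1 where ERG shRNA array 2 was, 4 where ERG shRNA array 1 was). With array number as a replicate block, 0 of 12 were called at a limma adjusted p under 0.05, and 0 of all 24525 probes. The numbers name arrays only: deviations of same-numbered arrays correlated at 0.168 in VCaP and at -0.0529 to 0.0694 in RWPE1, where the block changed no call of the set. CLDN7 in VCaP stayed between -1.26 and -1.02, with limma adjusted p-values from 0.00309 to 0.311, and RAB25 between -2.03 (background subtracted) and -1.19, from 0.000171 to 0.33. For the LSR probe for NM_205835 the values ran from -0.85 (background subtracted) to -0.20, the latter being LSR averaged over its probes. In RWPE1 at 72 h, 1 of 9 was called, and 0 after background subtraction. Without GFP 72 h array 2, CLDN1 differed by -0.30. At 48 h, 2 were called, 1 after background subtraction and 1 to 2 with 1 array left out; CLDN7 had a limma adjusted p of 0.192 without GFP 48 h array 1 and 0.0963 without GFP-ERG 48 h array 2. For the mean of both times, 1 was called, and 0 where time was left out of a fit of 4 arrays against 4. For 72 h against 48 h in GFP cells, 3 were called, and 1 to 3 with 1 array left out (1 without GFP 48 h array 2 or GFP 72 h array 2). The causes were not tested. Over all VCaP probes, 719 were called, 2015 with the trended variance, 1123 after the dim filter, 2728 without ERG shRNA array 1 and 1292 without ERG shRNA array 2. Background subtraction gave 525 in place of 1168 probes at 72 h, 868 in place of 1599 at 48 h, 1521 in place of 2289 for the mean (220 with no term for time) and 2 in place of 83 for the change between times. Signal over background limits CLDN3, CLDN4 and OCLN in RWPE1 and the dimmer OCLN and LSR probes in VCaP.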
